A study of Mus musculus with 8 samples.

Results

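The lysosomal cathepsins described here are 10 genes of the 31053 in the feature tables, chosen by symbol: Ctsa, Ctsb, Ctsc, Ctsd, Ctsf, Ctsh, Ctsk, Ctsl, Ctss and Ctsz. All 10 matched 1 row each. Their transcripts were counted in single cells of 8 large tumours (300 mm3) of B16F10, an established mouse melanoma cell line grown under the skin of mice. The hosts were 4 Atf4wt/wt mice, of which replicates 1 and 3 were male and 2 and 4 female, and 4 Atf4D/D mice, of which replicate 1 was female and the other three male. The labels give 12 weeks as the age of all 8 mice. Hosts of both genotypes carried the tamoxifen-inducible CreERT2 recombinase at the Rosa26 locus and received tamoxifen, so that the groups differ in the floxed Atf4 alleles, which encode a transcription factor of the integrated stress response. Recombination was not restricted to a cell type of the host, and the injected melanoma cells kept their own Atf4. Each tumour gave 1 library.

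Cathepsins are proteases that are made as inactive proenzymes, carried to the lysosome largely by mannose 6-phosphate receptors and activated at acid pH. Most are cysteine proteases, whereas the Ctsd product is an aspartic protease and the Ctsa product a serine carboxypeptidase. They degrade proteins that reach the lysosome by endocytosis, phagocytosis or autophagy, process antigens and the invariant chain of MHC class II, and, when secreted, can cleave collagen and other matrix proteins. In tumours they are known as products of macrophages, fibroblasts and the malignant cells themselves, and cystatins and stefins inhibit the cysteine proteases among them.

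The libraries held 37283598 to 74942137 unique molecular identifiers (UMIs, 1 per captured transcript) each, with medians of 6330.5 to 10652.5 UMIs per barcode, and 198 barcodes occurred in 2 libraries and 1 in 3, of 41725 distinct ones. After the study's limits on genes and mitochondrial counts, and once the 243 cells of the cluster richest in mitochondrial counts were taken out, 28168 cells remained. Cells were clustered without the cathepsins and the genes of the lysosome lists, and classes were named from markers. The 330 TAM-like cells (tumour-associated macrophages) had all 12 macrophage markers in at least 10% of the cells, the 592 CAF-like cells (cancer-associated fibroblasts) all 10 fibroblast markers, and the 23755 melanoma-like cells all 10 melanoma markers. Median depth was 2680.5 UMIs in TAM-like, 4414 in CAF-like and 10298 in melanoma-like cells. Of the melanoma markers, 8 of 10 were also found in at least 10% of the TAM-like cells. As a check of the labels, the Atf4 level in CAF-like cells lay between 250 and 305 CPM (UMIs of the gene in 1e+06 UMIs of the class) in 4 Atf4wt/wt tumours and between 45.9 and 93.9 CPM in 3 Atf4D/D tumours. In TAM-like cells these ranges were 148 to 276 CPM and 73.9 to 228 CPM and overlapped, and in melanoma-like cells they were 262 to 410 CPM and 310 to 442 CPM. Levels below are CPM of the UMIs summed per tumour and class, for tumours with at least 10 cells of the class, which left out Atf4wt/wt replicate 2 for TAM-like (5 cells) and Atf4D/D replicate 3 for CAF-like cells (8 cells). Since each transcript counts once whatever its length, length does not enter when these levels are set side by side between genes. Reads shared by overlapping genes may still be lost, as described for Ctsd below. Replicate mice are separate tumours, and classes, which come from clustering, are compared without a test.

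As a group, the 10 cathepsins made up 1.62% ± 0.386 (SD, n = 7 tumours) of all UMIs of TAM-like cells, 0.284% ± 0.0586 (n = 7) of CAF-like cells and 0.178% ± 0.0161 (n = 8) of melanoma-like cells. The lowest TAM-like tumour, at 1.21%, was above the highest CAF-like tumour, at 0.325%. CAF-like tumours, from 0.174%, overlapped with melanoma-like tumours, at 0.162% to 0.203%. In Atf4wt/wt replicate 3 the melanoma-like cells were the higher of the 2 classes, at 0.181% against 0.174%. All 10 members had a higher mean level in TAM-like than in melanoma-like cells, and 7 of 10 had a higher mean in CAF-like than in melanoma-like cells. Of those 7, Ctss was higher in CAF-like cells within 2 of 7 tumours, Ctsc within 5 of 7 and the others within all 7. The members divided into those that were highest in TAM-like cells (Ctsb, Ctsd, Ctsl, Ctss, Ctsz, Ctsc and Ctsa) and those whose mean was highest in CAF-like cells (Ctsh, Ctsk and Ctsf).

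**Figure D1:**
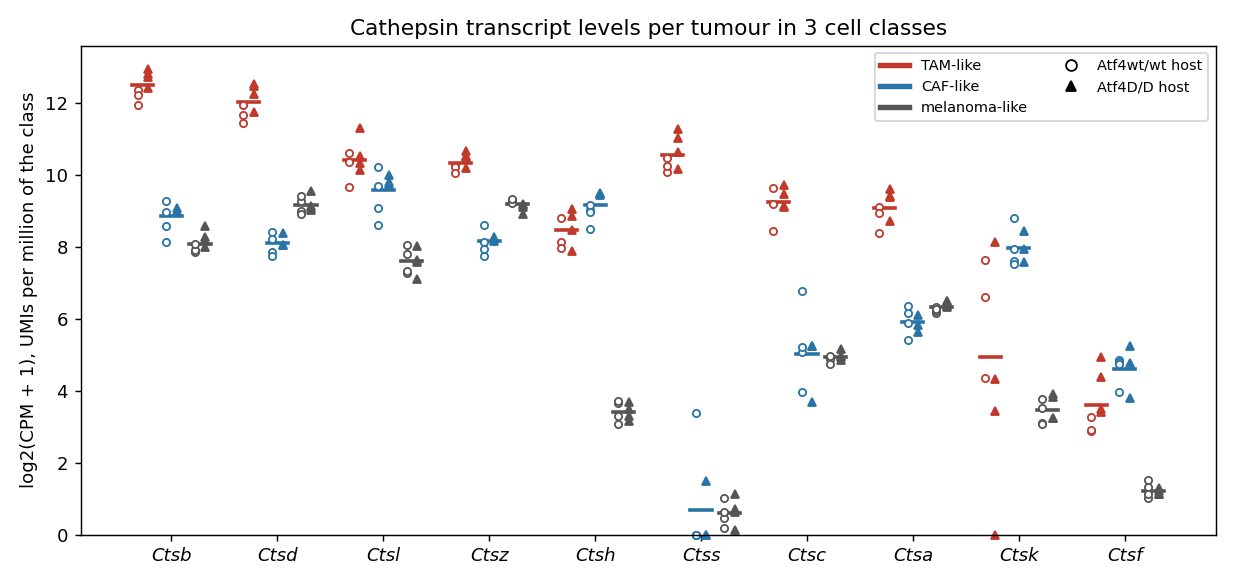
Level of each cathepsin as log2(CPM + 1) in TAM-like (red), CAF-like (blue) and melanoma-like cells (grey), with 1 point a tumour (open circles Atf4wt/wt, filled triangles Atf4D/D) and bars at the mean of the log values. Ctsb and Ctsd are highest in TAM-like cells, Ctss is near 0 outside them, and Ctsh and Ctsk stand higher in CAF-like than in melanoma-like cells in 7 of 7 tumours.

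Among the broadly acting endopeptidases, Ctsb, a cysteine protease that also trims dipeptides from carboxyl ends, was the most abundant member in TAM-like cells. Its level there was 5925 ± 1417 CPM (SD, n = 7), the rank of 12 among 12837 genes with a count in the class. In the single tumours it was 3984, 5314 and 4752 CPM in Atf4wt/wt replicates 1, 3 and 4 and 7884, 7254, 6787 and 5504 CPM in Atf4D/D replicates 1 to 4. It was lower in CAF-like cells at 479 ± 112 CPM (n = 7) and lower again in melanoma-like cells at 277 ± 51.8 CPM (n = 8), although the ranges of CAF-like and melanoma-like cells overlapped. Within a tumour the order TAM-like, CAF-like, melanoma-like held in every tumour in which the classes could be compared, with a median of 21.7 times between TAM-like and melanoma-like cells. Ctsb lies on chromosome 14 of GRCm38, from 63122462 to 63145923, on the plus strand.

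Ctsd, the aspartic protease, was second in TAM-like cells at 4305 ± 1248 CPM (n = 7), the rank of 16 among all genes. It ranged there from 2810 to 5974 CPM. In contrast to Ctsb, it was next highest in melanoma-like cells, at 585 ± 90.7 CPM (n = 8), and lowest in CAF-like cells, at 278 ± 48.7 CPM (n = 7), with no overlap between these 2 classes. The gene lies at 142375911 to 142388038 of chromosome 7, minus strand, where a further counted gene, Gm49369, covers part of it on the same strand, so reads that fit both genes cannot be assigned to either.

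Ctsl, an endopeptidase that also processes the invariant chain in some cell types, was at 1441 ± 537 CPM in TAM-like (n = 7), 819 ± 275 CPM in CAF-like (n = 7) and 198 ± 47.3 CPM in melanoma-like cells (n = 8). The TAM-like range of 810 to 2521 CPM and the CAF-like range of 388 to 1186 CPM overlapped, but TAM-like cells were higher within each of 6 tumours, by a median of 1.86 times. Of the members highest in TAM-like cells, it was the closest between macrophage-like and fibroblast-like cells. Ctsl lies on chromosome 13 from 64359337 to 64370890 on the minus strand and overlaps the antisense gene Gm47123.

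Ctss, the endopeptidase that degrades the invariant chain in antigen-presenting cells, had the narrowest range of cells. In TAM-like cells it was 1418, 1085 and 1227 CPM in Atf4wt/wt replicates 1, 3 and 4, and 2480, 2089, 1597 and 1148 CPM in Atf4D/D replicates 1 to 4. In CAF-like cells 5 of 7 tumours had no UMI of it, and 2 tumours had 2 UMIs each. Melanoma-like cells held 136 UMIs of it among 8 tumours, a level of 0.571 ± 0.385 CPM (n = 8). The level in melanoma-like cells was a median of 0.0496% of that in TAM-like cells of the same tumour (n = 7), against 2.63% for Ctsh, 4.60% for Ctsb, 15.2% for Ctsd and 49.3% for Ctsz. A Ctss UMI was found in 93.3% of TAM-like, 0.507% of CAF-like and 0.530% of melanoma-like cells. After each cell was thinned to 500 UMIs, with no cell left out, the shares were 57.5%, 0.0497% and 0.0298%.

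Ctsk, a collagen-cleaving protease best known from osteoclasts, had the opposite order of TAM-like and CAF-like means. It was 264 ± 97.6 CPM (n = 7) in CAF-like cells, with a range of 183 to 443 CPM, and 10.3 ± 2.66 CPM in melanoma-like cells (n = 8), and CAF-like cells were higher in 7 of 7 tumours by a median of 22.3 times. In TAM-like cells it differed widely among tumours. It was 96.2, 19.6 and 200.2 CPM in Atf4wt/wt replicates 1, 3 and 4 and 279, 19.2, 0 and 9.90 CPM in Atf4D/D replicates 1 to 4. Replicate 1 of each genotype and Atf4wt/wt replicate 4 were high, the other tumours were low, and the genotypes overlapped. Only 8.79% of TAM-like cells had a UMI of Ctsk, against 56.6% of CAF-like and 8.98% of melanoma-like cells, and at 500 UMIs the shares were 2.83%, 11.5% and 0.499%.

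Ctsk and Ctss lie next to each other on chromosome 3 of GRCm38, both on the plus strand, Ctsk from 95499256 to 95509362 and Ctss from 95526786 to 95556403. Their upstream windows are printed because the means of the neighbours had opposite orders between CAF-like and TAM-like cells. Within tumours, Ctsk was nonetheless higher in TAM-like than in CAF-like cells in 2 of 6. Each line gives the 250 bases before the start of the gene in RefSeq (GRCm38.p6), read along the strand of the gene, at chr3:95498960-95499209 for Ctsk and chr3:95526536-95526785 for Ctss.
Ctsk: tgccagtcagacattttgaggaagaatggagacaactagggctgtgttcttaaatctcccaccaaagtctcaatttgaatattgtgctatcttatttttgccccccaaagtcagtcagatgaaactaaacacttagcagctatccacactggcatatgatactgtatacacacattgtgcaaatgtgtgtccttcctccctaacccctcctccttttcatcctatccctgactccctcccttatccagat
Ctss: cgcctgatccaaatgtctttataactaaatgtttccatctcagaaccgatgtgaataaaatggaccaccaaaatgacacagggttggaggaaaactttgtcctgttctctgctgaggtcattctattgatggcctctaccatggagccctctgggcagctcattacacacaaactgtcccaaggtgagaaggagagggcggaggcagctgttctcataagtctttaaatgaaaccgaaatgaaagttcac
Neither window held any of 4 motifs searched on both strands: the E-box CACGTG, the element TGATGNAA read by ATF4 with C/EBP partners, the ETS core GAGGAAGT read by PU.1, and the AP-1 site TGAGTCA. Of 32851 upstream windows of the same length, 6.02% held CACGTG, 3.45% TGATGNAA, 2.44% GAGGAAGT and 4.46% TGAGTCA.

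RefSeq windows were found for 8 of the 10 members, 9 windows in all because Ctsa has 2, and none was at hand for Ctsb and Ctsh. CACGTG was found in 4 of the 9 windows, of Ctsa, Ctsd, Ctsf and Ctsl, TGATGNAA in that of Ctsl and GAGGAAGT in that of Ctsc, and TGAGTCA in none. By the gene positions used here, the Ctsl window and the Ctsa window with CACGTG lie wholly within the annotated genes and most of the Ctsd window within Ctsd, because these windows precede RefSeq starts that lie inside the annotated genes. The stretch of the Ctsd window that lies outside annotated exons, chr7:142388039-142388077 on the minus strand, and the Ctsc window, chr7:88277835-88278084 on the plus strand, are printed with the motif in capitals. In the Ctsc window the capitals are the reverse complement of GAGGAAGT.
Ctsd: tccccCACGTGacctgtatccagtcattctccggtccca
Ctsc: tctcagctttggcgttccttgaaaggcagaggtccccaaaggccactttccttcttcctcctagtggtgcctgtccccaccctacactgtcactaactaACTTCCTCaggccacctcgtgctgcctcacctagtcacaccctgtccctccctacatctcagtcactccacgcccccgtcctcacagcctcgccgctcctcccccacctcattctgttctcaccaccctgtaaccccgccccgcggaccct
A match of these letters is a description of the window, and no binding was measured here.

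Among the exopeptidases, Ctsz, which removes single residues from carboxyl ends, was the most evenly spread member. It was 1312 ± 206 CPM in TAM-like (n = 7), 589 ± 53.6 CPM in melanoma-like (n = 8) and 288 ± 55.3 CPM in CAF-like cells (n = 7), and the 3 ranges did not overlap. Together with Ctsd it was the leading cathepsin of the melanoma-like cells. Ctsz lies on chromosome 2 from 174427493 to 174439039, minus strand.

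Ctsc, the dipeptidyl peptidase that activates serine proteases of granules, was 628 ± 171 CPM in TAM-like (n = 7), 39.7 ± 32.2 CPM in CAF-like (n = 7) and 29.6 ± 2.57 CPM in melanoma-like cells (n = 8). Ctsa, a carboxypeptidase that also protects beta-galactosidase and neuraminidase 1, was 563 ± 158 CPM in TAM-like, 79.9 ± 6.47 CPM in melanoma-like and 60.7 ± 13.5 CPM in CAF-like cells. For both genes TAM-like cells stood apart from the other two classes, whose ranges overlapped each other. Ctsc lies on chromosome 7 from 88278085 to 88310888 on the plus strand, and Ctsa on chromosome 2 from 164832873 to 164841032 on the plus strand.

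Ctsh, an aminopeptidase, was the cathepsin that differed most between CAF-like and melanoma-like cells. In CAF-like cells it was 525, 507, 363 and 574 CPM in Atf4wt/wt replicates 1 to 4 and 721, 691 and 711 CPM in Atf4D/D replicates 1, 2 and 4, so that the 3 Atf4D/D tumours were the highest. Its mean of 584 ± 132 CPM (n = 7) was above that of TAM-like cells, 367 ± 116 CPM (n = 7), in 5 of 6 tumours, though the ranges overlapped, and a median of 57.7 times that of melanoma-like cells, 9.87 ± 1.87 CPM (n = 8). Ctsf, a cysteine protease of low level in all 3 classes, was 24.6 ± 8.25 CPM in CAF-like, 13.0 ± 8.59 CPM in TAM-like and 1.34 ± 0.257 CPM in melanoma-like cells. The TAM-like value rests on 12 UMIs of Ctsf in all. Ctsh lies on chromosome 9 from 90054152 to 90076089 and Ctsf on chromosome 19 from 4855130 to 4860918, both on the plus strand.

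The share of each cathepsin's transcripts that a class contributed followed cell number and depth as well as level. The median melanoma-like cell had 10298 UMIs, against 4414 in CAF-like and 2680.5 in TAM-like cells. The share of all UMIs that lay in melanoma-like cells was thus above their share of cells. In Atf4wt/wt replicate 1, for example, they held 49029984 UMIs, against 778928 in unnamed, 213240 in CAF-like and 155889 in TAM-like cells. A share of a gene's UMIs above the share of cells therefore does not by itself mean a higher level of that gene. Melanoma-like cells were 84.0% of the cells (mean of 8 tumours) and held 95.4% of the Ctsz UMIs, 93.0% of Ctsa, 92.7% of Ctsd, 86.8% of Ctsl and 86.7% of Ctsb. For Ctsh they held 53.7%, whereas CAF-like cells, 2.21% of the cells, held 27.3%, with a range of 3.57% to 63.7% among tumours. CAF-like cells also held 17.3% of the Ctsk and 13.0% of the Ctsf UMIs. Ctss was again apart, with 58.7% of its UMIs in TAM-like cells, which were 330 of the 28168 cells, 34.1% in unnamed immune cells and 5.09% in melanoma-like cells. These shares describe the dissociated suspension, in which host cells may be recovered less well than in the tissue, and this was not tested.

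The immune cells were clustered again into 7 subclusters. Subcluster 0, led by C1qa and Folr2 and TAM-like (254 cells, 7 tumours), had the highest mean of Ctsb (7742 CPM), Ctsd (5243 CPM), Ctsl (2018 CPM), Ctsa (711 CPM) and Ctss (2117 CPM). Subcluster 4, the second part of the TAM-like class, was led by genes of the cell cycle (76 cells, 3 tumours) and had Ctsb at 3335 CPM, Ctsd at 2754 CPM and Ctss at 771 CPM. Melanoma genes (Dct, Pmel, Tyrp1, Tyr and Mlana) in subcluster 4 reached 66.1% (57.7% to 77.0%) of their share in melanoma-like cells.

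The 2 unnamed subclusters of myeloid genes differed from subcluster 0 by member. Subcluster 1, led by Chil3, Ly6c2 and Ccr2 (250 cells, 7 tumours), had Ctss at 1657 CPM, Ctsc at 941 CPM and Ctsh at 522 CPM, but Ctsb at 1749 CPM, Ctsd at 730 CPM and Ctsl at 669 CPM. Its Ctsc mean was the highest of all immune subclusters. Subcluster 2, led by Arg1 and Vegfa (143 cells, 5 tumours), had Ctss at 1873 CPM, Ctsb at 3943 CPM, Ctsd at 1841 CPM and Ctsl at 1576 CPM. Thus the means of Ctss in subclusters 0, 1 and 2 lay between 1657 and 2117 CPM, whereas Ctsb and Ctsd had their lowest mean of the 3 in subcluster 1.

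Cells with dendritic genes had Ctsz, Ctss and Ctsh and little of the other cathepsins. Subcluster 5, unnamed and led by Flt3 and Wdfy4 (48 cells, 2 tumours), had Ctsz at 574 CPM, Ctss at 481 CPM and Ctsh at 407 CPM, against Ctsb at 138 CPM, Ctsl at 69.1 CPM and Ctsd at 45.6 CPM. Subcluster 6, dendritic-like and led by Fscn1, Ccl22 and Ccr7, had 40 cells, too few per tumour for a replicate, and pooled values have exact Poisson intervals of 95% that cover counting error only. Ctsz was 817 CPM (589 to 1105), Ctss 623 CPM (426 to 879) and Ctsh 564 CPM (378 to 811). Ctsb was 175 CPM (80.1 to 333), and Ctsd, Ctsl and Ctsc had 2 UMIs each, or 38.9 CPM (4.71 to 141). Ctsf and Ctsk had 0 UMIs, for which a limit of 3 counts gives 58.4 CPM and the exact interval reaches 71.8 CPM.

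**Figure D2:**
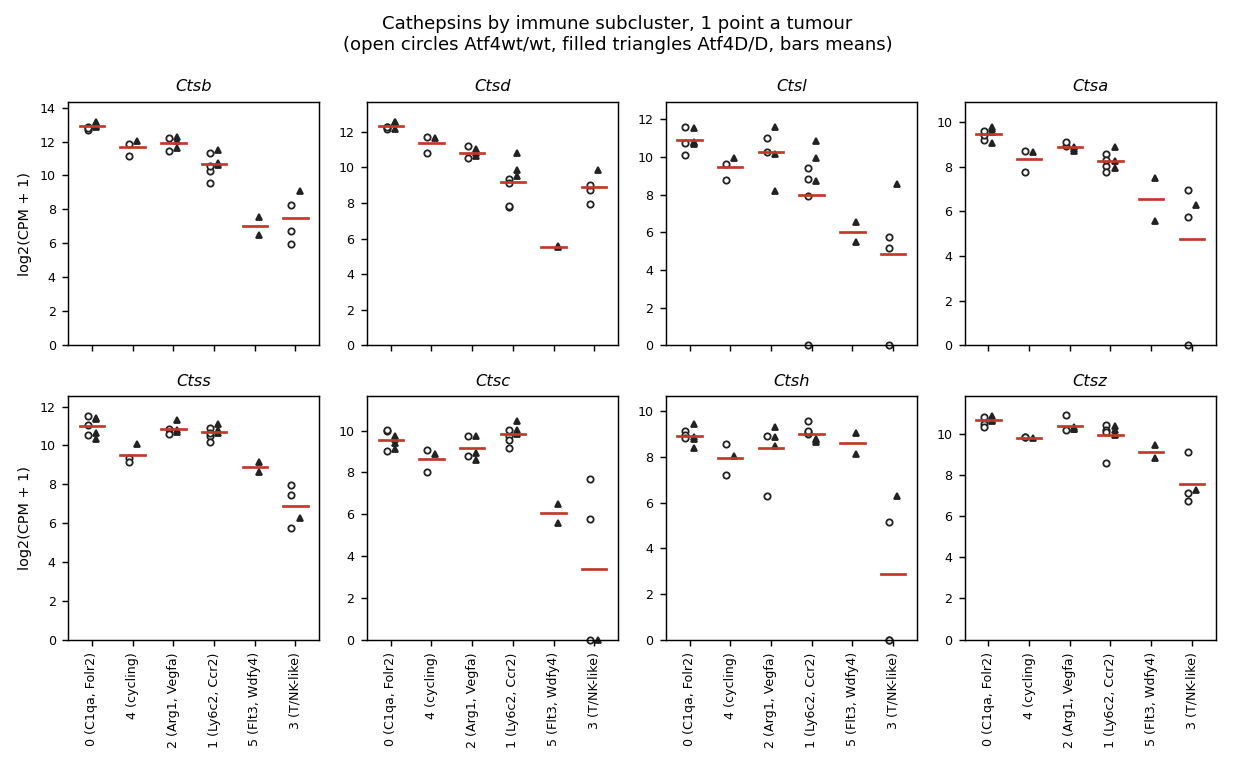
Level of 8 cathepsins as log2(CPM + 1) in the immune subclusters with at least 10 cells in 2 or more tumours, 1 point a tumour (open circles Atf4wt/wt, filled triangles Atf4D/D) and bars at the mean of the log values. Ctsb and Ctsd are highest in subcluster 0 and low in subcluster 5, whereas Ctss, Ctsh and Ctsz are still above 400 CPM on average in subcluster 5.

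Among the fibroblast-like cells, subcluster 0 (411 cells, 7 tumours) was led by Ptx3, Ogn and Dpt and subcluster 1 (181 cells, 5 tumours) by genes of the hypoxia response such as Pgf and Ndrg1. Ctsl was 750 ± 269 CPM in subcluster 0 and 1105 ± 328 CPM in subcluster 1. Ctsk was 282 ± 105 CPM and 164 ± 22.5 CPM in the same order, Ctsd 294 and 200.2 CPM, and Ctsh 615 and 525 CPM, and all 4 pairs of ranges were compared without a test. In pericyte-like cells (3 tumours) Ctsz was 313 CPM, Ctsb 253 CPM, Ctsl 210 CPM, Ctsk 181 CPM and Ctsh 55.6 CPM. In 35 pooled endothelial-like cells Ctsb was 848 CPM (674 to 1054), Ctsl 555 CPM (416 to 726) and Ctsh 31.4 CPM, from 3 UMIs (6.48 to 91.8).

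The melanoma-like cells fell into 10 clusters, each present in all 8 tumours, and different cathepsins were highest in different clusters. Ctsb was highest in cluster 14, with Lgals3 and Tmod1 among its leading genes, in 8 of 8 tumours. It was 648, 619, 585 and 669 CPM there in Atf4wt/wt replicates 1 to 4 and 657, 799, 782 and 618 CPM in Atf4D/D replicates 1 to 4, and a median of 2.42 times its level in the other melanoma-like cells. All 8 values lay above those of every other melanoma-like cluster.

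Ctsl was highest in cluster 1, led by Nupr1, Cth and Aldh1l2, in 8 of 8 tumours. It was 338, 337, 414 and 504 CPM in Atf4wt/wt replicates 1 to 4 and 436, 468, 378 and 266 CPM in Atf4D/D replicates 1 to 4, a median of 2.28 times the other melanoma-like cells. Cluster 1 was the cluster with the highest summed level of the stress genes listed (Ddit3, Fgf21, Trib3, Chac1, Atf3 and Asns), 1412 CPM against 687 CPM in cluster 14, the next highest. Ctsk was also highest in cluster 1, at 20.3 CPM, in 7 of 8 tumours.

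Ctsa was highest in cluster 4, led by genes of the hypoxia response such as Car9 and Bnip3, at 130 ± 8.75 CPM (n = 8) in 8 of 8 tumours, a median of 1.61 times the other melanoma-like cells. Ctsd was highest in cluster 0, with Mgll, Coq8a and Trpm1 as its first leading genes, at 744 ± 124 CPM in 8 of 8 tumours. It was lowest in cluster 7, with Cenpf and Espn among its leading genes, at 432 CPM in 8 of 8 tumours. Ctsz had its highest mean in cluster 0 too, at 668 CPM, and its lowest in cluster 4, at 459 CPM, and was the lowest of all clusters there in 6 of 8 tumours. Ctsh was 18.5 CPM in cluster 14 and 18.0 CPM in cluster 1, above the other melanoma-like cells in 8 of 8 tumours in each. The means of Ctsc lay between 22.2 and 32.4 CPM. Its level was above that of the other melanoma-like cells in 8 of 8 tumours in cluster 2, by a median of 1.14 times, and below it in 8 of 8 tumours in cluster 4, at a median of 0.801 times.

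**Figure D3:**
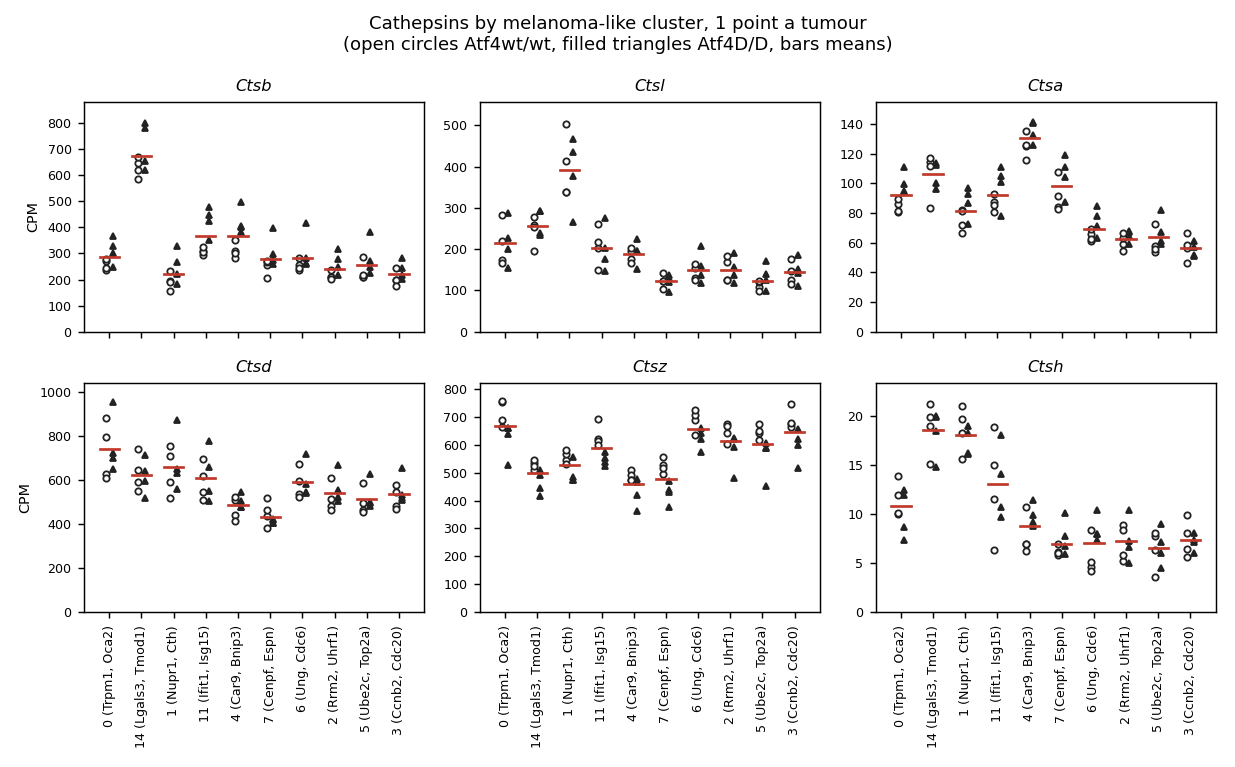
CPM of 6 cathepsins in the 10 melanoma-like clusters, named by number and a pair of leading genes, 1 point a tumour (open circles Atf4wt/wt, filled triangles Atf4D/D) and bars at the mean. Ctsb stands out in cluster 14 (mean 672 CPM), Ctsl in cluster 1 (393 CPM) and Ctsa in cluster 4 (130 CPM), while Ctsz is spread more evenly.

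A cluster of 950 cells that was left unnamed, cluster 9, had Malat1 as its leading gene and Ctsl among its 10 leading genes. Its mitochondrial share was 0.485% and its median depth 1546.5 UMIs. Ctsd was 2007 ± 473 CPM, Ctsl 1184 ± 476 CPM and Ctsz 1141 ± 285 CPM there (n = 8), whereas Ctsb was 382 CPM. Melanoma genes were at 246% of their share in melanoma-like cells. Ctsl was above Ctsb in 8 of 8 tumours there, as it also was in cluster 1, whereas the mean of all melanoma-like cells was higher for Ctsb.

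To see which genes followed each cathepsin, the Pearson r of the mean log2(CPM + 10) was taken over 23 clusters and subclusters among 6208 genes. The units share tumours and libraries and differ in depth, so r is a description. For Ctsb the closest genes were Lgmn (r = 0.96), Trem2 (0.94) and Abca1 (0.94), for Ctsd Tcirg1 (0.94), Daglb (0.90) and Apoe (0.89), and for Ctsa Ctsb (0.92), Pltp (0.92) and C1qb (0.91). Pltp overlaps Ctsa on the opposite strand. For Ctss they were Tnfaip8l2, Adam8 and Wfdc17 (0.99 each), for Ctsc Ms4a6d (0.97), Cd300ld (0.96) and C5ar1 (0.96), and for Ctsh Mcub (0.95), Il4ra (0.95) and Basp1 (0.93).

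For the members that were highest in fibroblast-like cells, the closest genes to Ctsk were Itgb5 (0.96), B4galt1 (0.94) and C1qtnf12 (0.93), and those to Ctsf were Ctsk (0.91), Olfml3 (0.89) and Colec12 (0.88). For Ctsl they were Lhfpl2 (0.93), Lrpap1 (0.88) and Mgat1 (0.87), and for Ctsz Kcnn4 (0.92), Creg1 (0.90) and Atp6ap2 (0.89). The members thus had other members among their closest genes only in the pairs of Ctsa with Ctsb and Ctsf with Ctsk.

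To ask whether the cathepsins differed with the genotype of the host, edgeR's quasi-likelihood test was run on the summed counts. A log2 fold change above 0 means a higher level in Atf4D/D hosts, and the adjusted p is by Benjamini-Hochberg over all genes tested. None of the members passed an adjusted p of 0.05 in TAM-like (0 of 9 tested), CAF-like (0 of 8) or melanoma-like cells (0 of 10), where 0.246%, 0.386% and 0.0319% of all genes did. At an unadjusted p under 0.05 there were 3 of 9, 1 of 8 and 2 of 10 members, against 15.9%, 8.06% and 11.3% of all genes tested, and DESeq2 called 0 members in the 3 classes.

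**Figure D4:**
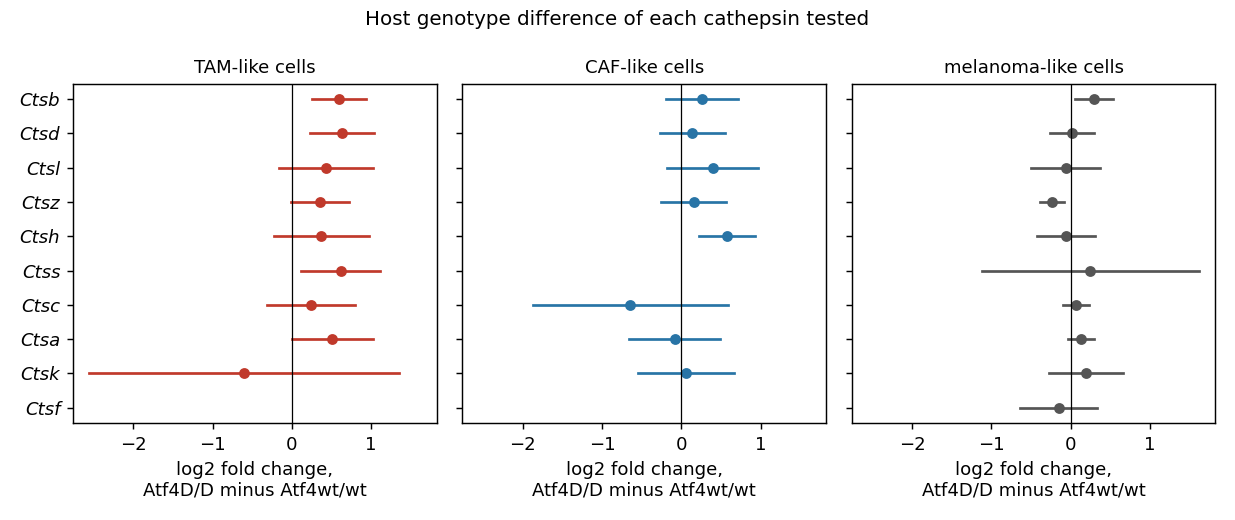
Log2 fold change of each cathepsin tested, Atf4D/D minus Atf4wt/wt, with its 95% confidence interval from edgeR, in TAM-like, CAF-like and melanoma-like cells. The intervals of Ctsb, Ctsd and Ctss in TAM-like, Ctsh in CAF-like, and Ctsb and Ctsz in melanoma-like cells leave out 0, and none passed after adjustment. Members without a point did not pass the filter on low counts.

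In TAM-like cells (3 Atf4wt/wt and 4 Atf4D/D tumours) 8 of the 9 members tested had a higher estimate in Atf4D/D hosts, with a median log2 fold change of 0.43 against 0.02 over all genes. The values of Ctsb given above did not overlap between the genotypes, which 14.7% of all genes tested in this class also showed, and it was the 1 member to do so. Its log2 fold change was 0.60 ± 0.16 (SE, 95% confidence interval 0.26 to 0.94, adjusted p = 0.112). Ctsd was 2810, 3974 and 3246 CPM in Atf4wt/wt replicates 1, 3 and 4 and 5724, 4931, 5974 and 3474 CPM in Atf4D/D replicates 1 to 4, with 0.63 ± 0.19 (adjusted p = 0.137). Ctss had 0.62 ± 0.23 (adjusted p = 0.224), and the genotypes overlapped for both.

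The melanoma RNA in the TAM-like cells moved with genotype as well. Melanoma genes in these cells reached 55.1%, 31.0% and 39.9% of their share in melanoma-like cells in the 3 Atf4wt/wt tumours and 6.63%, 25.9%, 7.55% and 28.7% in the 4 Atf4D/D tumours, without overlap. The summed macrophage markers ranged from 15633 to 25411 CPM in Atf4wt/wt and from 26361 to 38797 CPM in Atf4D/D hosts. In subcluster 0 alone, Ctsb was 7436, 6656 and 7230 CPM in Atf4wt/wt replicates 1, 3 and 4 and 8721, 9096, 7369 and 7684 CPM in Atf4D/D replicates 1 to 4. Its log2 fold change there was 0.23 (95% confidence interval -0.09 to 0.55), that of Ctss -0.02, and the median of the 9 members 0.07. Without the TAM-like cells that carried more than 25% of the melanoma-like share of these genes, that of Ctsb was 0.20. The member with the largest share of its level open to melanoma RNA was Ctsz, for which such RNA at the melanoma-like level would make up 2.51% to 28.8% of the TAM-like level, against 0.24% to 3.29% for Ctsb. These percentages cover only what such RNA would add to a level. Melanoma RNA also counts in the class UMIs over which CPM are taken. Whether and how far this lowered the CPM of Ctsb or other members was not tested.

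**Figure D5:**
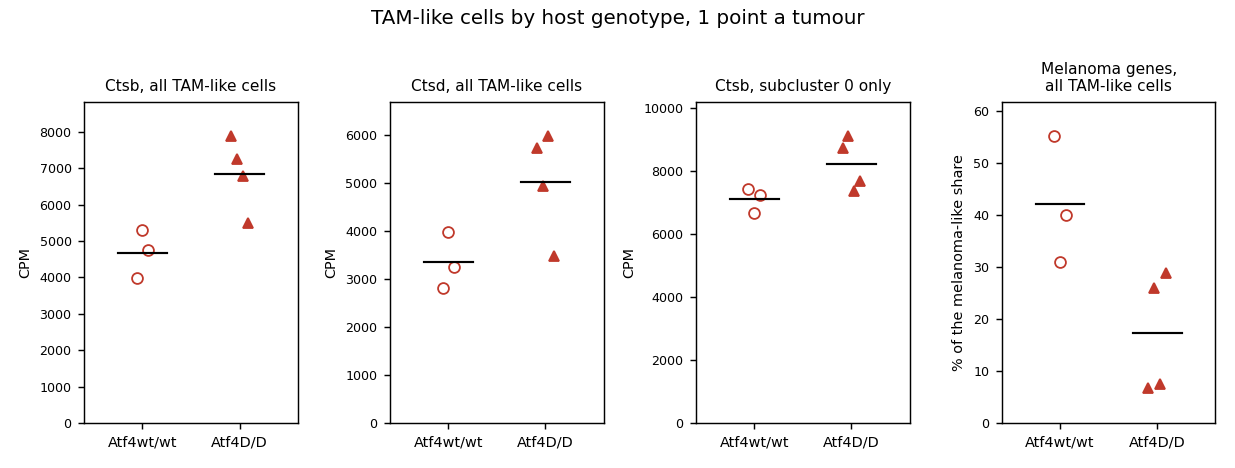
TAM-like cells by host genotype, 1 point a tumour with bars at the mean: CPM of Ctsb and Ctsd in all TAM-like cells, CPM of Ctsb in subcluster 0 only, and melanoma genes as a percentage of their share in melanoma-like cells. Ctsb is at 5504 CPM or more in the Atf4D/D tumours and at 5314 CPM or less in the Atf4wt/wt tumours, and the melanoma genes are higher in the Atf4wt/wt tumours (31.0% or more) than in the Atf4D/D tumours (28.7% or less).

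In CAF-like cells (4 Atf4wt/wt and 3 Atf4D/D tumours) Ctsh was the 1 member of 8 whose values did not overlap between genotypes, which 8.06% of all genes tested showed. The 3 Atf4D/D tumours, at 691 to 721 CPM, lay above the 4 Atf4wt/wt tumours, at 363 to 574 CPM, with a log2 fold change of 0.57 ± 0.17 (SE, 95% confidence interval 0.22 to 0.92, adjusted p = 0.220). With no filter on low counts it was 0.63 with an adjusted p of 0.0419. Summed fibroblast markers were 29896 to 44416 CPM in Atf4wt/wt and 42238 to 54498 CPM in Atf4D/D hosts, and the part of this in the Ctsh values was not tested. Ctsl was 1186, 823, 388 and 537 CPM in Atf4wt/wt and 1029, 903 and 865 CPM in Atf4D/D tumours, with 0.39 ± 0.27 (adjusted p = 0.790). The Atf4wt/wt tumours lay on both sides of the Atf4D/D tumours.

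Whether a genotype difference itself differed between classes was tested with an interaction term, blocking on the tumour. Between CAF-like and melanoma-like cells, where 0.794% of genes passed, it passed for Ctsh, the difference of log2 fold changes being 0.71 ± 0.19 (adjusted p = 0.0296), with Ctsh at -0.06 ± 0.17 in melanoma-like cells alone. The call rested on single tumours: without Atf4wt/wt replicate 3 the adjusted p was 0.472, without Atf4wt/wt replicate 4 it was 0.0559, without Atf4D/D replicate 1 it was 0.363 and without Atf4D/D replicate 4 it was 0.737. The difference kept its direction in each of these, at 0.56 or more. Ctsl, at 0.60 ± 0.17, had an adjusted p of 0.0677, and passed without Atf4wt/wt replicate 1 (adjusted p = 2.6e-06), Atf4wt/wt replicate 2 (0.00331) or Atf4D/D replicate 2 (0.00286). In those fits 100 of 12735, 104 of 12772 and 117 of 13030 genes passed, in the same order. The standard error of 0.17 for Ctsl was below that of the genotype test within CAF-like cells, 0.27, or melanoma-like cells, 0.20. For Ctsh it was 0.19, against 0.17 in each class. The interaction test may thus understate the spread between tumours, and its adjusted p may be too small. Between TAM-like and melanoma-like cells 0.204% of genes passed and no member did, the smallest unadjusted p being that of Ctsd (0.59 ± 0.18, adjusted p = 0.259). With a tumour left out, Ctsd passed without Atf4wt/wt replicate 3 (adjusted p = 0.0453), Atf4D/D replicate 2 (0.0386) or Atf4D/D replicate 4 (0.0152). Of all genes, 37 of 12432, 50 of 12039 and 35 of 12160 passed in those fits, in the same order. Ctsl passed without Atf4wt/wt replicate 1 (0.95, adjusted p = 0.00681), where 22 of 12442 genes did. Ctsk passed without Atf4D/D replicate 1 (-2.81, adjusted p = 0.0128), where 18 of 12160 genes did.

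In the melanoma-like cells, whose own Atf4 was intact, Ctsz was 634, 631, 600 and 650 CPM in Atf4wt/wt replicates 1 to 4 and 548, 486, 588 and 576 CPM in Atf4D/D replicates 1 to 4. All 4 Atf4D/D tumours were thus below all Atf4wt/wt tumours, as 6.66% of all genes tested were apart in either direction, with a log2 fold change of -0.23 ± 0.07 (adjusted p = 0.287). Ctsb was 237, 229, 241 and 270 CPM in Atf4wt/wt and 285, 386, 310 and 253 CPM in Atf4D/D tumours, overlapping in 1 tumour of each genotype, with 0.29 ± 0.11 (adjusted p = 0.376). Ctsd differed by 0.01 ± 0.13, with a 95% confidence interval of -0.27 to 0.29.

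The same direction was seen in each of the 10 melanoma-like clusters, which come from the same tumours and are not independent: the estimate of Ctsz was lower in Atf4D/D hosts in 10 of 10, from -0.30 to -0.17, and that of Ctsb higher in 10 of 10, from 0.17 to 0.48. Of the 20 fits to further classes, clusters and subclusters, these 10 included, 1 called a member. This was Ctsb in cluster 11, led by interferon-induced genes such as Ifit1 and Isg15, where it was 310, 294, 304 and 325 CPM in Atf4wt/wt and 423, 479, 448 and 353 CPM in Atf4D/D tumours. Its log2 fold change was 0.48 ± 0.10 with an adjusted p of 0.0498, where 0.292% of genes passed. It did not pass with the replicate number as a block (0.46, adjusted p = 0.151) or without any of the tumours except Atf4D/D replicate 4, with 0.42 to 0.54 and adjusted p from 0.0170 to 0.187 over the 8 tumours left out in turn.

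Other genes of the lysosome were taken from lists, given here as counts and medians. In TAM-like cells 16 of 18 hydrolases and activators tested had a higher estimate in Atf4D/D hosts, with a median log2 fold change of 0.46, and none passed. Psap, the precursor of the saposins, was at 3432 CPM with 0.75 ± 0.19 (adjusted p = 0.112), and Lgmn, the asparaginyl endopeptidase that can process cathepsins, at 1775 CPM with 0.68 ± 0.20 (adjusted p = 0.120). All 7 membrane proteins tested had a higher estimate, with a median of 0.58, and 0 passed. Cd63 was at 1678 CPM with 0.04 and Lamp1 at 1081 CPM with 0.66. Of 15 subunits of the vacuolar ATPase, which acidifies the lysosome, 11 had a higher estimate (median 0.33, 0 passed). The median over all genes was 0.02, and the melanoma RNA and marker levels given above for TAM-like cells moved with these lists too.

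Of the inhibitors, Cst3, the secreted cystatin C, was at 1130 CPM in TAM-like, 468 CPM in CAF-like and 285 CPM in melanoma-like cells, and Cstb, the cytosolic stefin B, at 955, 403 and 180 CPM in the same order. Neither passed the test of genotype in any of the 3 classes. Among substrates and partners, 4 of 5 tested in TAM-like cells had a lower estimate in Atf4D/D hosts, with a median of -1.54, and 1 passed. This was H2-Ab1, an MHC class II chain, at a mean of 214 CPM in Atf4wt/wt and 67.6 CPM in Atf4D/D hosts (-1.72 ± 0.32, adjusted p = 0.0445), and it passed in 4 of 16 alternatives, with adjusted p from 0.000313 to 0.267. Cd74, the invariant chain that Ctss and Ctsl process, was at 343 CPM with -1.64 ± 0.37 (adjusted p = 0.0931).

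In CAF-like cells 10 of 14 hydrolases and activators tested had a higher estimate in Atf4D/D hosts (median 0.21), and in melanoma-like cells 25 of 35 (median 0.06), and none passed in either class. Of the factors that drive lysosomal genes, Mitf was at 333 CPM in melanoma-like cells (-0.23, adjusted p = 0.389), and Tfe3 and Tfeb were at 18.4 and 17.1 CPM. Of the 13 further cathepsins on the list, 1 could be tested in melanoma-like cells and none in the other two classes. This was Ctso, at 3.81 CPM in melanoma-like, 12.2 CPM in TAM-like and 15.3 CPM in CAF-like cells.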

How the data were processed

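The transcriptomes of single cells of 8 tumours were measured with droplet libraries. The authors aligned the reads to the mouse genome, per the submitters' processing notes with Cell Ranger 3.1.0 and Seurat 3.2.1, and deposited, tumour by tumour, a matrix of UMI counts (genes by barcodes, build GRCm38) that was not normalized. The kit is V3 in the labels and V2 in the methods. Here the counts were filtered to cells with 200 to 5000 genes and at most 7.5% mitochondrial counts and to genes in at least 3 cells, as in the study. No doublet caller was run, so the upper limit on genes was the sole step against doublets. Genotypes were integrated and clustered with Seurat 5.3.0 in R 4.3.3 (2000 variable genes without 117 lysosome genes, 20 components, resolution 0.7, 16 clusters, and 0.3 for immune and CAF-like subclusters), and clusters were named from markers, so that class borders may differ from the study's.

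Counts were summed per tumour and class (at least 10 cells). edgeR 4.0.16 (filterByExpr, TMM, quasi-likelihood test, Benjamini-Hochberg over all genes tested) compared the genotypes, and DESeq2 1.42.0 was an alternative. Others were RLE factors, no filter, a replicate block, a sex term, a mitochondrial limit of 5%, clustering with the lysosome genes, cells without melanoma RNA and each tumour left out. The genotype test was run on simulated independent counts with the same spread for every gene, which is not the spread of these tumours. The interaction test was not simulated. The spread between mice limits the precision of genotype differences, and total counts of a class that of low genes. Intervals of pooled counts are exact and cover counting error only, and 3 counts were taken as the upper limit behind a count of 0. Positions are those of GENCODE for GRCm38 and upstream sequences those of RefSeq for GRCm38.p6, read for 8 of the 10 members. All members were named, with the 3 genes closest to each and, of each list, the genes past the threshold and some of the 3 most abundant. Members and lists were chosen with earlier results of these data known. The authors' cell labels were not used here.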

Additional observations from a re-analysis of the deposited data

Results flagged for a closer look

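Of 40 groups of 4 tumours (a cathepsin in a class and genotype), 3 held a tumour that stood apart from the other three by Dixon's criterion, which chance gives in about 1 in 20 groups. Ctsk in TAM-like cells was 279 CPM in Atf4D/D replicate 1, from 27 UMIs, whereas the next tumour of the genotype was at 19.2 CPM. Fibroblast markers were at 0.0687% of their CAF-like share in the TAM-like cells of that tumour. Ctsf in CAF-like cells was 14.7 CPM in Atf4wt/wt replicate 3, from 4 UMIs, with the nearest of the other tumours at 26.1 CPM. Ctss in CAF-like cells was 9.38 CPM in Atf4wt/wt replicate 1, from 2 UMIs, with 0 UMIs in the other three Atf4wt/wt tumours.

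The genotype difference of Ctsh differed between CAF-like and melanoma-like cells, by 0.71 on the log2 scale in edgeR's interaction test (adjusted p = 0.0296). Of all genes tested for the interaction, 0.794% passed. Ctsh was higher in 3 of 3 Atf4D/D tumours than in any Atf4wt/wt tumour in CAF-like cells. Of all genes tested in these cells, 8.06% had no overlap between genotypes, counting both directions. In CAF-like cells alone Ctsh did not pass edgeR's genotype test (adjusted p = 0.220). The adjusted p of the interaction lay between 0.000915 and 0.737 when single tumours were left out. The interaction test may understate the spread between tumours, as described above, so its adjusted p may be too small.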

How the results depend on the processing

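No cathepsin passed the genotype test in TAM-like or melanoma-like cells under any alternative or with any tumour left out, and in CAF-like cells 1 did, Ctsh, with no filter on low counts (0.63, adjusted p = 0.0419). Counts over all genes moved more. In TAM-like cells 5 genes passed, against 18 with DESeq2, 55 with no filter, 21 with the replicate block, 1 with the sex term, 1 at a mitochondrial limit of 5%, 2 without cells carrying melanoma RNA, 2 without the cycling subcluster, 2 with tumours of at least 5 cells, and 0 (without Atf4wt/wt replicate 4) to 11 (without Atf4D/D replicate 2) when a tumour was left out. In CAF-like cells 16 passed, against 116 with no filter, 75 with the block, 0 with the CAF-like cluster undivided, 5 with tumours of at least 5 cells, and 5 (without Atf4wt/wt replicate 2) to 27 (without Atf4wt/wt replicate 1). In melanoma-like cells 4 passed, against 117 with DESeq2, 47 with no filter, 0 with the block, 0 with the sex term, and 0 (without Atf4wt/wt replicate 1) to 20 (without Atf4D/D replicate 3). The r of deviations between tumours of the same replicate number was from -0.36 to 0.12. In TAM-like and melanoma-like cells no Atf4wt/wt tumour was closest to the Atf4D/D tumour of its number. In CAF-like cells replicates 1, 2 and 4 were, at r of 0.06 to 0.12, and whether the numbers pair the tumours was not tested. With the block, which could be fitted in 19 of the 20 other fits, 0 cathepsins passed there instead of 1. The interaction with melanoma-like cells called 0 to 2 members in CAF-like and 0 to 1 in TAM-like cells with a tumour left out. Over all genes, these fits called from 26 of 12870 to 117 of 13030 in CAF-like and from 15 of 12203 to 50 of 12039 in TAM-like cells. Estimates near 0 changed sign. In TAM-like cells Ctsc was -0.093 without cells carrying melanoma RNA, -0.24 without the cycling subcluster and -0.033 to 0.57 with a tumour left out, Ctsl was -0.20 at the limit of 5% and -0.016 without cells carrying melanoma RNA, Ctss was -0.025 without the cycling subcluster, and Ctsk -1.12 to 0.20 with a tumour left out. In CAF-like cells Ctsa was 0.078 with the cluster undivided and -0.23 to 0.085 with a tumour left out, and Ctsk -0.060 with the block and -0.18 to 0.35. In melanoma-like cells Ctsd was -0.028 and Ctsk -0.021 at the limit of 5%, and with a tumour left out Ctsd was -0.11 to 0.10, Ctsf -0.30 to 0.030, Ctsh -0.19 to 0.045, Ctsl -0.22 to 0.090 and Ctss -0.28 to 0.75. None of these passed. The summed cathepsin level of TAM-like cells was 20833 CPM in place of 16221 CPM without the cycling subcluster. The causes of these moves were not tested. The alternatives with the undivided CAF-like cluster, without the cycling subcluster and with at least 5 cells, and the tumours left out for Ctsb in cluster 11, were chosen after seeing the data. The order of the 3 classes by mean summed level held without each tumour in turn, although CAF-like and melanoma-like tumours overlapped. TAM-like sums of 20 to 131 cells limit what could be tested there.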
